A study of Rattus norvegicus with 56 samples.

Results

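MicroRNAs (miRNAs) of the rat hippocampus were compared 6 months after traumatic brain injury (TBI) or sham surgery. The 8 libraries whose labels give 6 months as the time after treatment make up this comparison, 4 from TBI rats and 4 from sham-injured rats, out of 56 libraries that cover 7 post-injury intervals. In the study the injury was a fluid percussion injury, in which a pulse of fluid deforms the exposed brain and gives a mixed diffuse and focal lesion, and each library came from the hippocampus of a single rat. Sham rats shared the surgery but not the pulse. The strain, sex and age of the rats are not given in the sources used here. The comparison asks which miRNAs still differed long after the injury.

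A miRNA is a short RNA that guides Argonaute proteins to messenger RNAs, mostly by pairing of its seed, bases 2 to 8, and so lowers the output of its targets. In the brain, most miRNA reads come from a few neuronal and glial families. A smaller set rises with inflammation: miR-155, miR-146a, miR-21 and miR-142 are known from macrophages, microglia and infiltrating leukocytes, and miR-146a is a feedback inhibitor of Toll-like receptor signalling.

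The mature sequences of the miRNAs on which the comparison turned are shown here 5′ to 3′, as RefSeq gives them for the GRCr8 build, with the seed in capitals. The first set holds the immune-linked miRNAs, in which miR-146a-5p and miR-146b-5p carry the same seed and differ only towards the 3′ end.
miR-142-5p: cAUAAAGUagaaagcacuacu
miR-155-5p: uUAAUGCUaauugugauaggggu
miR-146a-5p: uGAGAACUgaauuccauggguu
miR-146b-5p: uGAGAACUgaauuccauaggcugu
miR-21-5p: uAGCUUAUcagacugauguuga
The second set holds the other miRNAs with an unadjusted p under 0.05 at 6 months, with miR-204-5p, which has the seed of miR-211-5p, and with miR-182 and miR-96-5p, the neighbours of miR-183-5p.
miR-346: uGUCUGCCugagugccugccucu
miR-3065-5p: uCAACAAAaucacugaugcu
miR-10a-5p: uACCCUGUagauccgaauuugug
miR-152-5p: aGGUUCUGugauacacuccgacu
miR-144-5p: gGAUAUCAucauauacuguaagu
miR-451-5p: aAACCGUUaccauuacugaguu
miR-183-5p: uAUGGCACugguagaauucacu
miR-182: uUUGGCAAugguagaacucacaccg
miR-96-5p: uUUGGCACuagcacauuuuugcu
miR-211-5p: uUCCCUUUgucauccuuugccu
miR-204-5p: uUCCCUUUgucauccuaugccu

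In GRCr8, mature miR-142-5p lies at chr10:73055119-73055139 on the plus strand, within the span of Tspoap1, and miR-155-5p at chr11:37261117-37261139 on the plus strand, within the long noncoding RNA gene Mir155hg. miR-346 lies at chr16:10224315-10224337 on the plus strand within Grid1, which encodes a glutamate receptor subunit. miR-3065-5p lies at chr10:105796345-105796364 on the plus strand, within Aatk and opposite the miR-338 gene. miR-144-5p (chr10:63459409-63459431) and miR-451-5p (chr10:63459585-63459606) are neighbours on the plus strand, and miR-183-5p (chr4:59756106-59756127), miR-96-5p (chr4:59755901-59755923) and miR-182 (chr4:59752249-59752273) are neighbours on the minus strand. Whether these positions are exonic or intronic was not analysed here. RefSeq held a mature sequence for 331 of the 367 miRNAs in the table, and 21 of the tested ones had none.

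The total count per library was 3688311 to 4920906 in sham rats and 2763597 to 5623558 in TBI rats, with no difference detected in a two-sided exact permutation test (p = 0.83). The shallowest library was that of TBI rat 3. Of the 367 miRNAs, 304 had a read in at least 1 of the 8 libraries and 246 in every one of them, and 224 passed the filter on low counts and were tested. A miRNA without reads could have made up 0.523 to 1.04 CPM (the read count scaled to library size), depending on the library. These limits are 3 counts and cover counting error only, because PCR copies were not told apart by molecular identifiers. Neuron-enriched miRNAs, 14 in all, together took 268400 to 342400 CPM per rat. Of the 6 miRNAs of muscle and liver, miR-1-5p, miR-133b-5p, miR-206-5p and miR-208a-5p had 0 counts in all 8 libraries, miR-133a-5p had at most 5 counts and miR-122-5p at most 24. Of the 7 miRNAs of epithelium and sensory cells, miR-200c-5p had 0 counts, miR-141-5p, miR-200a-5p and miR-200b-5p had at most 1, and miR-183-5p, miR-182 and miR-96-5p had reads in every library. Apart from miR-182, whose name gives no arm, these counts are of 5p arms. The table held no 3p arm of the muscle, liver, epithelium and sensory miRNAs, so low counts do not show that a miRNA was absent. In bulk tissue, fewer cells of a type and less RNA per cell cannot be told apart.

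No single miRNA was called different 6 months after TBI. edgeR's quasi-likelihood test gave 0 of 224 miRNAs with an adjusted p under 0.05 (0% of those tested), and the lowest adjusted p was 0.771, for miR-142-5p. An unadjusted p under 0.05 was reached by 10 miRNAs, which is 4.46% of those tested and below the share of 0.05 that chance alone gives. Of these 10, 8 (3.57%) were higher after TBI and 2 (0.893%) lower. With DESeq2's Wald and likelihood ratio tests and edgeR's own likelihood ratio test added, no miRNA passed in all 4 tests, and 7 of the 10 had an unadjusted p under 0.05 in each of them. These were miR-10a-5p, miR-142-5p, miR-144-5p, miR-183-5p, miR-211-5p, miR-346 and miR-451-5p. The number with an unadjusted p under 0.05 depended on single rats. It was 19 of 225 without sham rat 1 and 18 of 226 without TBI rat 1, both above a share of 0.05. It was 6 of 226 without sham rat 2 and 6 of 226 without sham rat 3. Whether the share lay above or below 0.05 therefore depended on which rats were included.

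The sizes of the differences were small. Of the tested miRNAs 113 (50.4%) had a log2 fold change above 0 and 111 below, with a median of 0.00116, and 187 (83.5%) lay within 0.25 of 0. Only miR-183-5p, miR-144-5p, miR-10a-5p and miR-3065-5p lay beyond 1 in either direction. For 91.1% of all tested miRNAs the 95% interval of the log2 fold change did not reach a 2-fold change in either direction. The biological coefficient of variation was 0.17, beside 0.175 to 0.256 at the other intervals, while the median standard error of the log2 fold change was 0.157, beside 0.119 to 0.246.

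**Figure D1:**
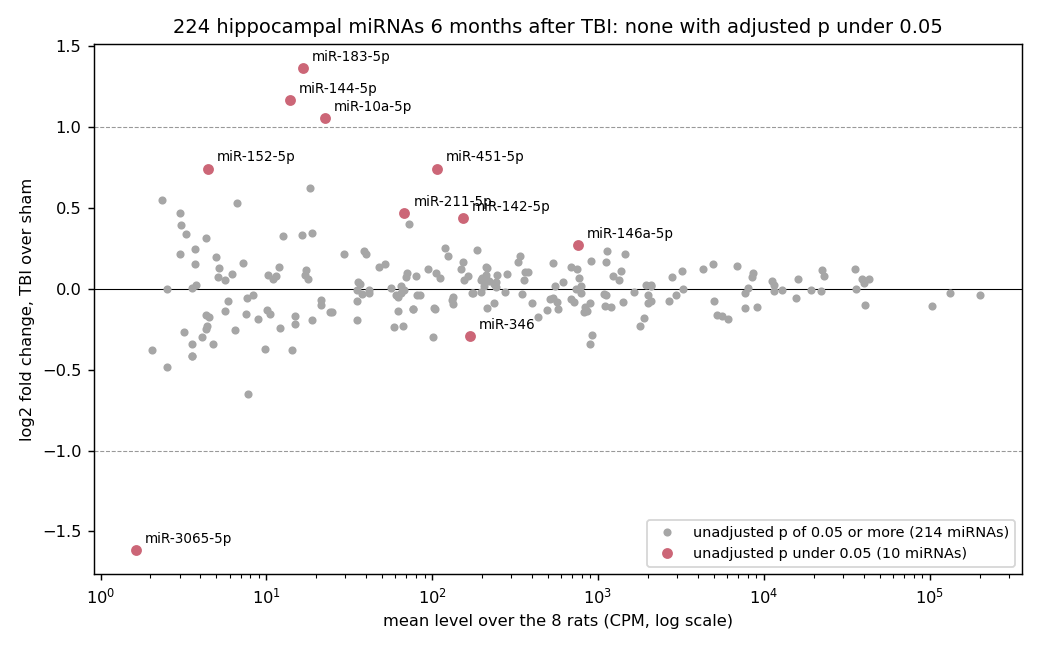
Each point is one of the 224 tested miRNAs, with its mean level over the 8 rats in CPM on a logarithmic horizontal axis and its log2 fold change (TBI over sham) on the vertical axis; dashed lines mark 1 and -1. The 10 red points have an unadjusted p under 0.05, none has an adjusted p under 0.05, and the 4 points beyond the dashed lines all lie under 25 CPM.

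Among the immune-linked miRNAs, miR-142-5p was the clearest. miR-142 is made in cells of haematopoietic origin, among them leukocytes and microglia, whose numbers were not measured here. Its level was 128.5, 129.7, 121.6 and 140.8 CPM in sham rats 1 to 4 and 172.4, 190.4, 149.5 and 191.1 CPM in TBI rats 1 to 4. Every TBI rat was thus higher than every sham rat. Its log2 fold change was 0.44 with a standard error of 0.12 and a 95% interval of 0.18 to 0.70 (unadjusted p = 0.00344, adjusted p = 0.771 by the quasi-likelihood test of edgeR, which is fitted across all miRNAs and is not a permutation test). Over 70 assignments, a two-sided exact permutation test gave p = 0.0286, which is the smallest that 4 rats against 4 allow. Groups that did not overlap were found for 3 of the 224 miRNAs (1.34%), 2 (0.893%) with every TBI rat higher and 1 (0.446%) with every TBI rat lower. Random assignment of the rats separates a miRNA in this way with a probability of 0.0286, so the share found was below that given by chance. The split between higher and lower depended on the scaling: it was 1 higher and 3 lower with the size factors of DESeq2 or without the filter, and 2 and 2 with total counts. The separation of miR-142-5p was present with TMM scaling, with the size factors of DESeq2, with total counts and without the filter. With each rat left out in turn its log2 fold change was 0.40 to 0.51.

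The other miRNA with all TBI rats higher was miR-155-5p, which is induced in activated macrophages and microglia. It was rare, at 27, 12, 30 and 26 counts in sham rats and 31, 39, 27 and 33 counts in TBI rats. Scaled to library size these were 5.38, 3.32, 6.25 and 5.90 CPM in sham rats and 6.30, 6.80, 9.32 and 9.597 CPM in TBI rats. The highest sham rat and the lowest TBI rat were closer to each other than the 0.203 CPM that 1 read was worth in that TBI library. With the size factors of DESeq2, with total counts or without the filter, TBI rats that exceeded every sham rat numbered 3 of 4. miR-155-5p had a log2 fold change of 0.53, with a 95% interval from -0.002 to 1.07 and an adjusted p of 0.947 in edgeR's quasi-likelihood test (unadjusted p = 0.0507).

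miR-146a-5p was at 751.5, 599.9, 718.4 and 679.1 CPM in sham rats and at 684.7, 898.5, 863.6 and 876.0 CPM in TBI rats. TBI rats 2, 3 and 4 exceeded the sham range, and TBI rat 1 lay within it. Its log2 fold change was 0.27 (standard error 0.12; edgeR, unadjusted p = 0.0427, adjusted p = 0.947). Its relative with the same seed, miR-146b-5p, was several times more abundant, at 4430 to 6041 CPM in sham rats and 3915 to 5306 CPM in TBI rats, with a log2 fold change of -0.08. miR-21-5p, which is induced in reactive astrocytes and in many injured tissues, was at 7410 to 9728 CPM in sham rats and 6813 to 10410 CPM in TBI rats. Its log2 fold change was 0.09 with a 95% interval of -0.20 to 0.39, which leaves out a change of 2-fold.

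The whole set of 13 immune-linked miRNAs was mixed. Of its members 10 could be tested, and none passed at the adjusted threshold. Of the 10, 7 had a log2 fold change above 0 and 3 below, with a median of 0.08 beside 0.00 for all tested miRNAs, and the split was 6 and 4 with the size factors of DESeq2. miR-27a-5p was at 11.95 to 17.7 CPM in sham rats and 15.9 to 22.0 CPM in TBI rats, with a log2 fold change of 0.33 (edgeR, unadjusted p = 0.0947). miR-222-5p was at -0.19 and miR-221-5p at -0.06. The 10 also held miR-181b-5p at 0.07 and miR-132-5p at 0.01, which are counted again below in the miR-181 family and the activity-induced miRNAs. miR-223-5p, the 5p arm of a miRNA of neutrophils and monocytes, had 0, 1, 2 and 2 counts in sham rats and 2, 3, 1 and 4 counts in TBI rats. It was too low to be tested, and the table held no 3p arm of miR-223. All 13 members were counted as 5p arms, so these values do not cover their 3p arms.

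As a marker of leukocytes, miR-150-5p of mature lymphocytes was measured beside miR-142-5p. Its level was 912 to 1106 CPM in sham rats and 1072, 1310, 1305 and 1217 CPM in TBI rats 1 to 4, a log2 fold change of 0.23 (edgeR, unadjusted p = 0.0505). TBI rat 1 again lay within the sham range, and the other 3 above it. The summed level of the leukocyte list was 1034 to 1248 CPM in sham rats and 1244 to 1501 CPM in TBI rats, so that only TBI rat 1 fell within the sham range. The part of blood left in the tissue vessels in these values was not tested.

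**Figure D2:**
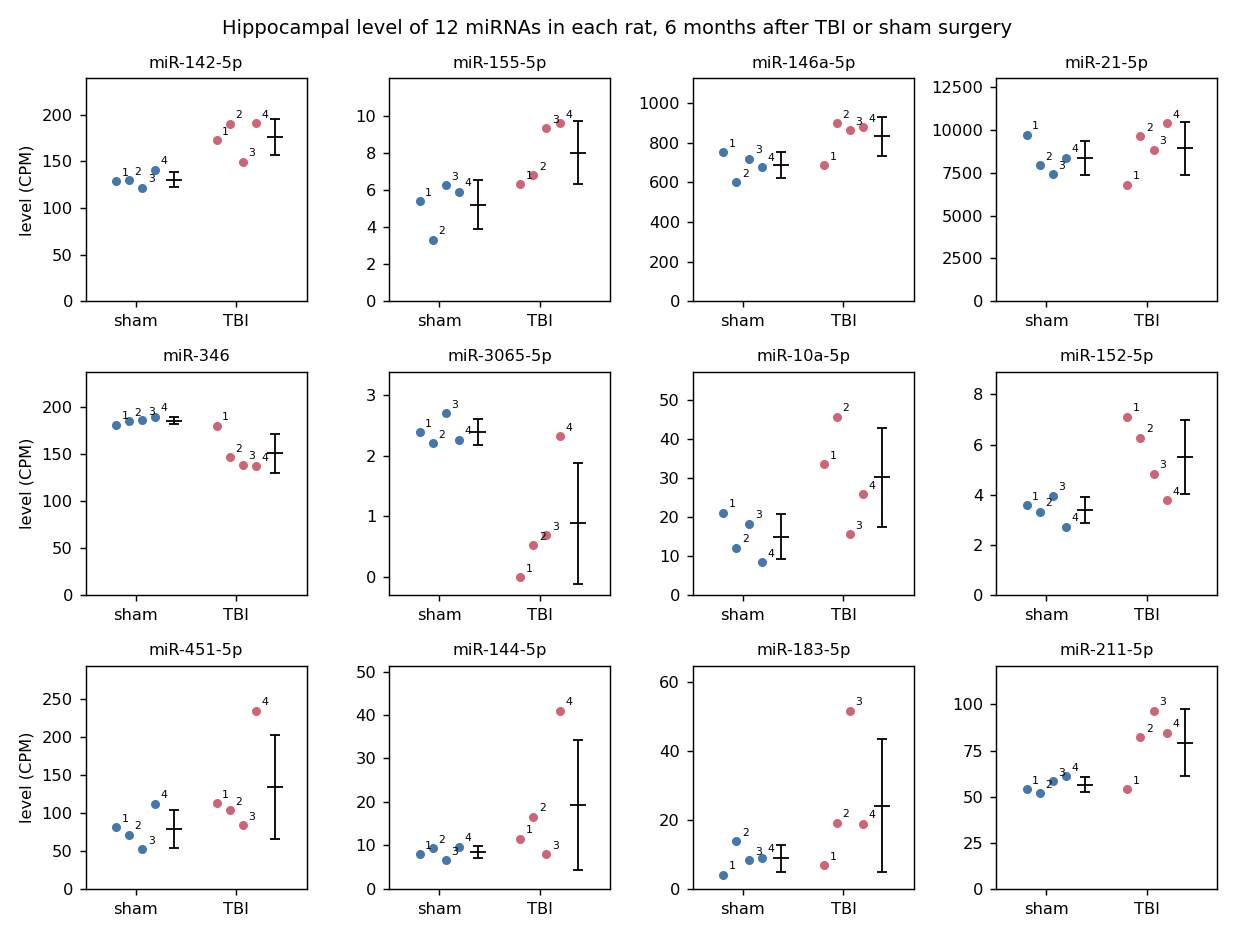
Level in CPM of 12 miRNAs in each of the 4 sham rats (blue) and 4 TBI rats (red) at 6 months, with the rat number beside each point and the mean and SD of each group as a black bar. The red points lie wholly above the blue in miR-142-5p and, by less than the value of 1 read, in miR-155-5p, and wholly below in miR-346; in miR-451-5p and miR-144-5p TBI rat 4, and in miR-183-5p TBI rat 3, stands far above the others.

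miR-346 had all 4 TBI rats lower. It is made within Grid1, a gene expressed in neurons. Its level was 181.31, 184.94, 186.53 and 189.84 CPM in sham rats and 180.51, 146.96, 138.8 and 136.98 CPM in TBI rats. The sham rats lay within a narrow range, TBI rats 2 to 4 well below it, and TBI rat 1 directly under it with 889 counts against 910 in sham rat 1. The log2 fold change was -0.29 (standard error 0.12; edgeR, unadjusted p = 0.0310, adjusted p = 0.868), with p = 0.0286 in the exact permutation test. The order of the groups was the same with TMM, DESeq2 size factors, total counts and no filter.

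The other lower miRNA, miR-3065-5p, is made from the strand opposite miR-338, a miRNA of myelinating oligodendrocytes. It had 12, 8, 13 and 10 counts in sham rats and 0, 3, 2 and 8 counts in TBI rats. TBI rat 4, at 2.33 CPM, was within the sham range of 2.21 to 2.71 CPM, and the other 3 were at 0 to 0.691 CPM. The log2 fold change was -1.61 with a 95% interval of -2.86 to -0.37 (edgeR, unadjusted p = 0.0148, adjusted p = 0.828), and the exact permutation test gave p = 0.0857. It was -2.61 without TBI rat 4 and -1.14 without TBI rat 1. Its neighbour miR-338-5p was at 1778 to 2659 CPM in sham rats and 1621 to 2502 CPM in TBI rats, with a log2 fold change of 0.03, and miR-219a-5p, the other miRNA of oligodendrocytes, was at 0.20. The oligodendrocyte list as a whole had 2 members above 0 and 1 below, all counted as 5p arms.

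miR-10a-5p, a miRNA of the Hox gene clusters that is usually low in forebrain, was at 21.1, 12.2, 18.3 and 8.39 CPM in sham rats and 33.5, 45.7, 15.5 and 25.9 CPM in TBI rats. TBI rats 1, 2 and 4 exceeded the sham range and TBI rat 3 lay within it. This gave a log2 fold change of 1.06 (standard error 0.33; edgeR, unadjusted p = 0.00805, adjusted p = 0.828; exact permutation test, p = 0.0857). miR-10b-5p, its counterpart from another Hox cluster, was at 3.04 to 14.1 CPM in sham rats and 2.44 to 17.3 CPM in TBI rats, a log2 fold change of 0.16. The 5 others of the group of miR-10, miR-99, miR-100 and miR-125 lay between -0.10 and 0.03, among them miR-99a-5p and miR-125b-5p, which are among the most abundant miRNAs of the tissue.

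miR-152-5p had 3.59, 3.32, 3.96 and 2.72 CPM in sham rats and 7.11, 6.28, 4.83 and 3.78 CPM in TBI rats. TBI rat 4 alone was within the sham range. The log2 fold change was 0.74 (standard error 0.26; edgeR, unadjusted p = 0.0139, adjusted p = 0.828).

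Among the miRNAs of red blood cells, TBI rat 4 had the highest levels. miR-451-5p, which matures without Dicer and is abundant in erythrocytes, was at 81.5, 71.3, 52.7 and 112.5 CPM in sham rats and 112.7, 103.7, 84.3 and 235.0 CPM in TBI rats. miR-144-5p, from the same primary transcript, was at 7.97, 9.40, 6.66 and 9.75 CPM in sham rats and 11.6, 16.6, 7.94 and 41.0 CPM in TBI rats. For miR-144-5p TBI rats 1, 2 and 4 were above the sham range, and for miR-451-5p TBI rat 4 was far above it and TBI rat 1 just above it. The log2 fold changes were 0.74 for miR-451-5p and 1.17 for miR-144-5p (edgeR, unadjusted p = 0.0381 and 0.0239, adjusted p = 0.947 and 0.868). Without TBI rat 4 they were 0.36 and 0.61. miR-486, the third erythrocyte miRNA, had a log2 fold change of 0.24. The summed level of the 3 was 222.1 to 316.9 CPM in sham rats and 241.0 to 554.6 CPM in TBI rats, and the part of residual blood in these differences was not tested.

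The miR-183 cluster, known from sensory cells and epithelia, was high in TBI rat 3. miR-183-5p was at 4.18, 13.8, 8.33 and 9.07 CPM in sham rats and 6.90, 19.2, 51.8 and 18.9 CPM in TBI rats. miR-182 followed, with 48.7 CPM in TBI rat 3 and 8.93 to 19.4 CPM in the 7 other rats, and miR-96-5p had 35 counts in TBI rat 3 and 4 to 16 in the other rats. The 3 miRNAs were thus highest in the same library, which was the shallowest of the 8. The log2 fold change of miR-183-5p was 1.36 (standard error 0.54; edgeR, unadjusted p = 0.0286, adjusted p = 0.868) and was 0.80 without TBI rat 3, while that of miR-182 went from 0.63 to 0.08.

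miR-211-5p was at 54.2, 51.97, 58.5 and 61.2 CPM in sham rats and 54.0, 82.1, 96.7 and 84.6 CPM in TBI rats. TBI rats 2, 3 and 4 exceeded the sham range, and the log2 fold change was 0.47 (standard error 0.17; edgeR, unadjusted p = 0.0209, adjusted p = 0.868). miR-204-5p has the same seed, is highly expressed in choroid plexus, and was at 1460 to 2345 CPM in sham rats and 1630 to 2298 CPM in TBI rats, with a log2 fold change of -0.04 that turned above 0 when single rats were left out. The other choroid plexus and ependyma miRNAs were at -0.30 (miR-34b-5p), -0.34 (miR-34c-5p), -0.14 (miR-448-5p), -0.16 (miR-764-5p) and 0.06 (miR-449a-5p). None of these had an unadjusted p under 0.05, and the list had 2 members above 0 and 5 below (median -0.14). The split was 4 above and 3 below without TBI rat 4, and the median was -0.47 without TBI rat 1. The list had a summed level of 2907 to 3636 CPM in sham rats and 2569 to 3395 CPM in TBI rats.

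**Figure D3:**
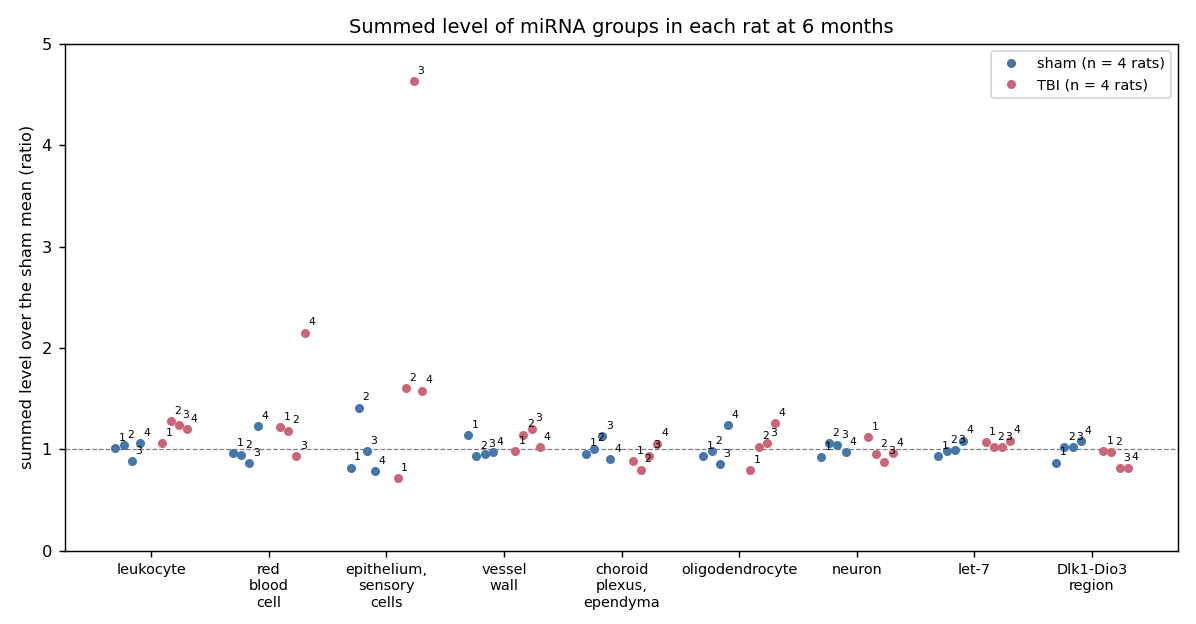
Summed CPM of the members of 9 miRNA groups in each sham rat (blue) and TBI rat (red), divided by the mean of the 4 sham rats; the numbers beside the points are the rats and the dashed line is the sham mean. TBI rat 4 stands apart in the red blood cell group and TBI rat 3 in the group of epithelium and sensory cells, while the neuron, let-7 and Dlk1-Dio3 sums spread less.

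No difference was detected among the miRNAs that make up most of the library. The 10 most abundant took 69.5% of the counts, and the 3 most abundant took 43.7%: miR-9a-5p held 20.2%, miR-26a-5p 13.3% and miR-99a-5p 10.3%. miR-9a-5p, a regulator of neural progenitors that stays high in neurons, was at 183300 to 221900 CPM in sham rats and 186800 to 212100 CPM in TBI rats, with a log2 fold change of -0.04 (95% interval -0.20 to 0.13). miR-7a-5p varied most among the 10, from 31880 to 49670 CPM in sham rats and from 30900 to 66110 CPM in TBI rats, with TBI rat 1 the highest. All 10 had a log2 fold change between -0.10 and 0.12 and an adjusted p of 0.963 or more in edgeR's test.

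Neuronal miRNAs had no common direction. Of 13 tested, 8 were above 0 and 5 below, with a median of 0.06, and the extremes were miR-137-5p at -0.38 and miR-128-1-5p at 0.33, neither with an unadjusted p under 0.05. miR-124-5p, the passenger arm of the most neuron-specific miRNA, was at 0.05. The miRNAs induced by neuronal activity were at 0.01 for miR-132-5p, -0.09 for miR-212-5p and -0.08 for miR-134-5p. For the neuronal and activity-induced miRNAs the table held 5p arms only, apart from miR-7b, whose name gives no arm. Their 3p arms were therefore not measured here. The vessel wall miRNAs miR-126a-5p, miR-143-5p and miR-145-5p were at 0.12, 0.15 and 0.11, and their 3p arms were not measured either.

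A larger group with 1 prevailing sign was the imprinted Dlk1-Dio3 region, a cluster on rat chromosome 6 whose miRNAs are expressed from the maternal allele and are enriched in brain. Of its 46 members counted here, 38 were tested, and 31 had a log2 fold change below 0 and 7 above, beside 111 and 113 for all tested miRNAs. The median was -0.12, the range -0.37 to 0.24, and no member had an unadjusted p under 0.05. Among the abundant members, miR-379-5p was at -0.16, miR-411-5p at -0.19, miR-434-5p at -0.17 and miR-369-5p at -0.23. The summed level was 26370, 31010, 31100 and 32820 CPM in sham rats and 29730, 29410, 24810 and 24870 CPM in TBI rats, so that sham rat 1 lay among the TBI rats. The members come from shared transcripts and are not independent, and miR-299a-3p and miR-299b-3p had identical counts in every library, so that the same reads stand behind both. Over the alternatives, 27 to 33 members were below 0.

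The let-7 family, which shares the seed GAGGUAG, had 9 of 9 members above 0 with a median of 0.08 and no unadjusted p under 0.05. This was 8 of 9 with the size factors of DESeq2 and 7 of 9 without the filter, and the largest log2 fold change was 0.14 (let-7b-5p). The 6 tested members of the miR-15/16 group were also all above 0 (median 0.14, with miR-16-5p at 0.22), as were the 6 tested members of the miR-17-92 group (median 0.12). Leaving out single rats, or adding a surrogate variable for the miR-15/16 group, brought 1 member below 0 in either. Members of a family or cluster cannot be taken as independent, and the summed levels of sham and TBI rats overlapped. The let-7 sum was 152700 to 178300 CPM in sham rats and 167200 to 178300 CPM in TBI rats. For miR-15/16 it was 2037 to 2579 CPM and 2202 to 2676 CPM, and for miR-17-92 665.2 to 1037 CPM and 771.0 to 1042 CPM. The miR-30 family had 3 of 5 members above 0, the miR-181 family 3 of 4, and the miR-23/27/24 clusters 2 of 5. Members of all these families and clusters were counted as 5p arms only, so their 3p arms were not measured.

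**Figure D4:**
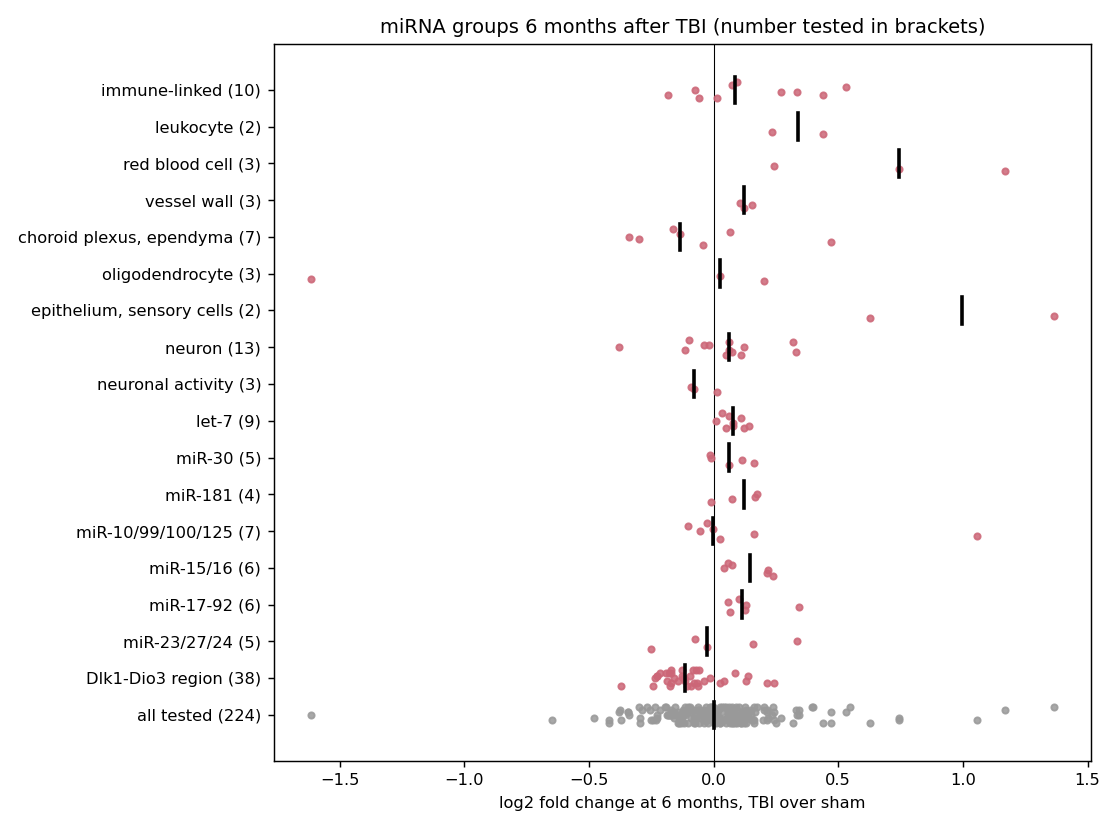
Log2 fold change (TBI over sham, horizontal axis) of every tested member of 17 miRNA groups and of all 224 tested miRNAs (bottom row, grey); each point is a miRNA and the black line is the median of its row. The medians farthest from 0 are those of epithelium and sensory cells (0.996 over 2 miRNAs, 0.44 without TBI rat 3), red blood cells (0.74 over 3, 0.36 without TBI rat 4) and leukocytes (0.34 over 2).

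Of the miRNAs that the study names for human serum long after TBI, 4 were changed at both acute and chronic intervals. Among these it describes miR-451 as higher and miR-204-5p as lower in chronic TBI. In rat hippocampus, a different tissue, the log2 fold changes of the 4 counterparts lay on both sides of 0. miR-451-5p is described above. miR-145-5p was at 296.7 to 453.9 CPM in sham rats and 316.1 to 490.6 CPM in TBI rats, with a log2 fold change of 0.11, and miR-30d-5p at 17190 to 21360 CPM and 18400 to 19850 CPM, with a log2 fold change of -0.01 (95% interval -0.19 to 0.17). miR-204-5p was at -0.04. The let-7 isoforms that set chronic TBI serum apart in the study, let-7c-5p and let-7i-5p, were at 0.08 and 0.12.

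The injury effect at 6 months was then set against that at other intervals, each with its own sham rats, in a joint fit of all 56 libraries. The 24 h interval was chosen as that with the largest injury effect, so smaller effects at 6 months were favoured by this choice. It was the largest by miRNAs with an adjusted p under 0.05 in edgeR's test, 4 of 233 beside 1 of 240 at 1 month. By median size of the log2 fold change 1 month was larger, at 0.258 beside 0.121 at 24 h. Against 24 h, 3 of 244 miRNAs (1.23%) had a different injury effect with an adjusted p under 0.05 by edgeR's quasi-likelihood test, and 11 (4.51%) an unadjusted p under 0.05. The effect on miR-21-5p was lower at 6 months, with a difference of -1.61 on the log2 scale (standard error 0.27, adjusted p = 8.13e-05), and that on miR-155-5p differed by -2.22 (0.48, adjusted p = 0.00345). For miR-3065-5p the difference was -2.46 (0.66, adjusted p = 0.0397): at 24 h it was at 1.89 ± 0.31 CPM in sham rats and 3.76 ± 1.36 in TBI rats (SD, n = 4 each), and at 6 months at 2.39 ± 0.22 and 0.885 ± 1.01. Its adjusted p was 0.063 without sham rat 1, 0.0805 without sham rat 3, 0.185 without TBI rat 1, 0.15 without TBI rat 2 and 0.0631 without TBI rat 3, and also above the threshold without the filter (0.0589) and in a fit of only these intervals (0.173).

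Against the neighbouring intervals no miRNA passed. For 6 months minus 3 months, 0 of 244 (0%) had an adjusted p under 0.05 in edgeR's test and 8 (3.28%) an unadjusted p under 0.05. For 6 months minus 1 year the counts were 0 (0%) and 7 (2.87%). The difference in the effect on miR-155-5p was 0.23 against 3 months (95% interval -0.86 to 1.32) and 0.98 against 1 year (-0.09 to 2.06), intervals wide enough to hold a change of 2-fold. For miR-21-5p they were -0.08 (-0.62 to 0.46) and -0.06 (-0.60 to 0.49), narrower than 2-fold.

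Across miRNAs the log2 fold changes at 6 months were weakly correlated with those at other intervals. Their median size at 6 months was 0.107, below the median standard error of 0.157. Error of this size weakens any correlation, so the values below cannot show whether the injury effects differ between intervals. The Pearson correlation across shared miRNAs, which are not independent replicates, was 0.155 with 24 h, -0.0424 with 2 weeks, 0.0643 with 1 month, -0.179 with 2 months, -0.0683 with 3 months and 0.238 with 1 year.

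**Figure D5:**
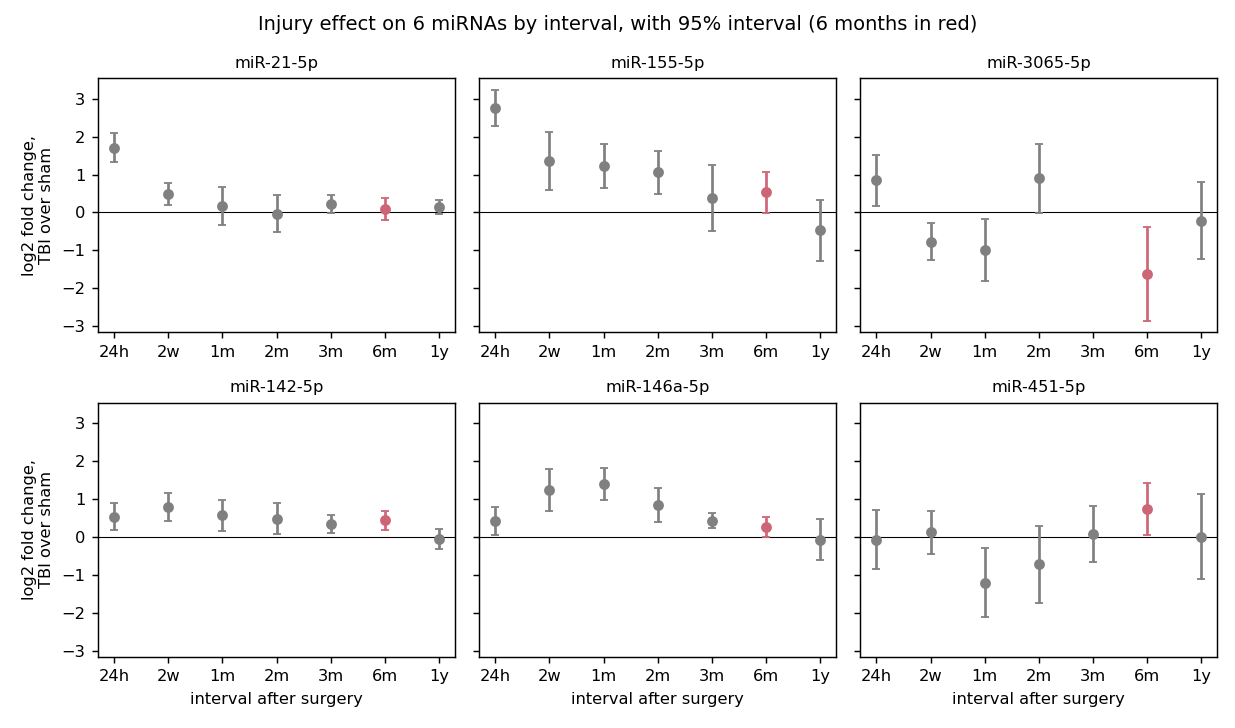
Log2 fold change (TBI over sham, vertical axis) of 6 miRNAs at each of the 7 intervals (horizontal axis), from edgeR's fit of the 8 rats of that interval, with 95% intervals; 6 months is red. miR-21-5p and miR-155-5p are highest at 24 h, miR-142-5p is above 0 up to 6 months and at -0.05 at 1 year, and miR-3065-5p was not tested at 3 months.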

How the data were processed

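Small RNA libraries were made from hippocampal total RNA (Ribopure) with the NEBNext small RNA kit and size fractionation and sequenced on a NextSeq550, and reads were converted with bcl2fastq 2.20.0.422 per the labels. Adapter trimming and counting per mature miRNA were done by the authors with miRDeep2 and miRBase. The deposited values are raw, unnormalized counts. The handling of reads matching more than one miRNA is not given in the sources used here, nor is a genome build. By name, 309 of the miRNAs are the 5p arm, 5 the 3p arm and 53 neither. Other 3p arms were not analysed here.

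Counts of the 8 libraries were filtered with filterByExpr, scaled by TMM and compared by the quasi-likelihood test of edgeR 4.0.16 (R 4.3.3) with Benjamini-Hochberg adjustment over 224 miRNAs and a threshold of 0.05. A standard error is |log2 fold change| over the root of the F statistic. CPM is the count over the TMM-scaled library size. For single miRNAs, log2 CPM (prior count 2) was also permuted over all assignments (two-sided exact test). Differences between intervals came from a joint fit of 56 libraries with a mean for each group. Groups were taken from the labels, and rats are numbered in accession order. Over 12 replicate pairs the chi-square of the counts was at least 76.8 per degree of freedom, so none agreed within sampling noise. The tests of edgeR and DESeq2 and the contrasts between intervals were tried on simulated counts, with changes of at least 2-fold placed in more abundant miRNAs. Smaller changes, changes in rare miRNAs, and the permutation, principal component and list steps were not simulated.

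The alternatives were DESeq2 1.42.0 size factors, scaling by total count, a minimum of 10 counts per library or no filter, edgeR's likelihood ratio test and older quasi-likelihood fit, both tests of DESeq2, a fit of all 56 libraries, 1 surrogate variable (sva 3.50.0), a prior count of 0.5, only the intervals compared, and each rat left out. List directions, overlap of the groups under each scaling, and contrasts without the shallowest library of the series were added after the data were seen. The miRNAs named were those with an unadjusted p under 0.05, the 10 most abundant, the 3 with the largest fold change in each direction, the 5 most variable, those called at 24 h, at 1 month or in a contrast, those the study names, and examples of each list. Members and lists were chosen with earlier results of these data known. Sequences and positions come from RefSeq (GRCr8), matched by miRNA name. Python 3.11.15, pandas 2.3.3 and matplotlib 3.10.9 were used for lists and plots.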

Additional observations from a re-analysis of the deposited data

Results flagged for a closer look

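TBI rat 1 stood apart from the other TBI rats in miR-146a-5p, at 685 CPM against 864 to 898 CPM, a gap of 0.837 of the group's range. It was the 1 group of 4 rats so marked among 80 checked, where chance gives about 1 in 20, or 4 groups. Without TBI rat 1 the log2 fold change of miR-146a-5p was 0.36 in place of 0.27.

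For 3 miRNAs the injury effect at 6 months differed from that at 24 h in a test of the difference itself (edgeR's quasi-likelihood test over 244 miRNAs, 4 rats per group): miR-155-5p by -2.22, miR-21-5p by -1.61 and miR-3065-5p by -2.46 on the log2 scale. The first and second of these kept an adjusted p of at most 0.0207 and 0.000848 in all 13 alternatives tried, and the last had an adjusted p above 0.05 in 7 of 13. miR-3065-5p had at most 13 counts per library at 6 months. The 24 h interval had been chosen as that with the largest injury effect, by miRNAs with an adjusted p under 0.05 and not by median fold change.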

How the results depend on the processing

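The count of miRNAs with an adjusted p under 0.05 at 6 months was 0 in all 18 alternatives (lowest adjusted p 0.106 to 0.997), with 6 to 19 at an unadjusted p under 0.05, and the contrast with 24 h gave 2 to 3. The fit of all 56 libraries gave 6 of 244 at an unadjusted p under 0.05. Of the log2 fold changes of named miRNAs at 6 months, 10 turned their sign in some setting, each with an adjusted p of at least 0.661, and the cause was not tested. With total count only, miR-30d-5p was at 0.006 and miR-125b-5p at 0.014. In the fit of all 56 libraries miR-125b-5p was at 0.002. With 1 surrogate variable miR-125b-5p was at 0.003 and miR-10b-5p at -0.186. Without the filter let-7g-5p was at -0.007. With each rat left out in turn, the values ran from -0.018 to 0.236 for miR-145-5p, -0.172 to 0.042 for miR-204-5p, -0.065 to 0.046 for miR-30d-5p, -0.089 to 0.003 for miR-9a-5p, -0.087 to 0.038 for miR-26a-5p, -0.195 to 0.202 for miR-7a-5p, -0.02 to 0.103 for let-7g-5p, -0.075 to 0.07 for miR-125b-5p, -0.23 to 0.906 for miR-6315 and -0.383 to 0.899 for miR-10b-5p. The number of miRNAs whose groups did not overlap was 3 as reported (miR-142-5p and miR-155-5p higher, miR-346 lower). It was 4 with the size factors of DESeq2 and without the filter (miR-142-5p higher, and miR-346, miR-425-5p and miR-431 lower) and 4 with total count only (let-7i-5p and miR-142-5p higher, miR-346 and miR-431 lower). miR-425-5p, miR-431 and let-7i-5p were named here after their values were seen.

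No paired analysis was possible because sham and TBI rats at 6 months share no number in the labels. The labels do not give the sequencing run of a library, so run could not be a covariate. With 4 rats a group, edgeR's p-values set the difference of the groups against the spread between rats. That spread is estimated with information shared over all tested miRNAs and, for contrasts between intervals, over all 56 libraries. At a few counts, miRNAs such as miR-155-5p and miR-3065-5p had intervals too wide to place the size of their change.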

Other observations

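Rats of the same group differed more than the groups did on the leading axes of variation. In a principal component analysis of log2 CPM over the tested miRNAs, 29.3% of the variance lay on the first component, whose ends were both sham rats (sham rat 1 at 12.3 and sham rat 4 at -12.6), with the TBI rats from -2.97 to 6.54 between them. Members of the Dlk1-Dio3 region were prominent at the end of sham rat 4: miR-369-5p was at 1240 CPM in sham rat 1 and 2472 CPM in sham rat 4, and at 1520 to 1748 CPM in TBI rats. The second component held 24.7%, and its scores also overlapped, from -8.30 to 7.53 in sham rats and from -7.58 to 9.28 in TBI rats.

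The miRNAs that varied most between rats of the same group were miR-6315, miR-10b-5p, miR-183-5p, miR-182 and miR-3065-5p. miR-6315 was at 0.227 to 7.91 CPM in sham rats and 2.62 to 6.10 CPM in TBI rats. Among the lowest fold changes, miR-6215 was at 8.12 to 10.96 CPM in sham rats and 2.03 to 9.59 CPM in TBI rats, a log2 fold change of -0.65 (edgeR, unadjusted p = 0.0814, adjusted p = 0.963), and miR-296-5p was at -0.48. With single rats left out these ran from -1.12 (without TBI rat 2) to -0.30 (without TBI rat 1) for miR-6215 and from -0.71 (without sham rat 4) to -0.22 (without TBI rat 4) for miR-296-5p, which was also at -0.24 without sham rat 1. miR-3084b-5p and miR-3084c-5p had identical counts in every library, as miR-299a-3p and miR-299b-3p did.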
